A study of Mus musculus with 7 samples.

Results

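The genes described here are 10 chemokine ligands in RAW264.7, a mouse line with macrophage features: Ccl2, Ccl3, Ccl4, Ccl5, Ccl7, Ccl9, Ccl12, Ccl22, Cxcl2 and Cxcl16. They were found by symbol among the 55417 gene symbols of the count table, and all 10 were in it and passed the filter on low counts. The set was chosen from chemokine genes with their levels in these 7 libraries already known, so the members' values are given as a description, with fitted differences and intervals, and the calls they received in the fit over all genes are counted without being read as evidence. RNA sequencing compared cells carrying 1 of 2 short hairpins against Dpep2, shDpep2.968 (n = 2) or shDpep2.759 (n = 2), with cells carrying the control hairpin shNT (n = 3). Every library, controls included, came from cells with a hairpin, and no stimulus is named in the labels. The labels do not say whether replicates were separate cultures, so errors and p-values cover the spread among these 7 samples alone, and that spread may be technical.

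Chemokines are small secreted proteins that guide leukocyte migration through receptors coupled to heterotrimeric G proteins. In CC ligands the first conserved cysteines are adjacent, whereas in CXC ligands another residue lies between them. Macrophages make several of them in response to NF-kB, interferon and MAP kinase signalling, and many of their mRNAs are short-lived because AU-rich elements in the 3' UTR recruit decay factors. Dpep2 encodes a dipeptidase of the cell surface whose known substrates include leukotriene D4.

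Library totals ran from 16548648 to 18401060 counts, and 1 count was worth 0.0548 to 0.0604 CPM, the share of a library's counts on a scale adjusted by TMM factors. Dpep2 stood at 17.9 to 24.9 CPM in the 4 hairpin libraries and at 52.1 to 60.3 CPM in the 3 shNT libraries. Of 10 macrophage markers 9 passed the low-count filter, with summed levels of 14140 to 15630 CPM with shNT, 14680 to 14920 with shDpep2.968 and 16590 to 20200 with shDpep2.759. The 8 neutrophil markers summed to 17.8 to 34.1 CPM with shNT, 34.8 to 50.9 with shDpep2.968 and 100.5 to 237 with shDpep2.759. Nearly all of that was S100a8, a calcium-binding protein gene, whereas the defining markers Ly6g and Ltf had 0 counts in all 7 libraries. The 8 lymphocyte markers stayed at 1.56 to 3.31 CPM in sum, mostly Cd79a, and the 6 epithelial markers at 0 to 0.174 CPM. The 7 fibroblast markers summed to 0.785 to 1.86 CPM with shNT, 2.20 to 2.42 with shDpep2.968 and 3.54 to 3.69 with shDpep2.759. The part of these markers in the ligand values was not tested. In a bulk sample, fewer cells making a ligand and less of its RNA per cell cannot be told apart.

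Most of these genes are neighbours. In the RefSeq annotation of GRCm38.p6, Ccl2 lay next to Ccl7 on chromosome 11, with Ccl11 between Ccl7 and Ccl12. On the same chromosome Ccl5 was followed by Ccl9, Ccl6, Ccl3 and Ccl4, and Cxcl16 lay apart from them. Ccl22 was on chromosome 8 beside Cx3cl1, and Cxcl2 on chromosome 5 beside Cxcl1. The RefSeq span of Ccl4 overlaps that of Ccl3, whereas their spans in GENCODE M21 do not overlap. Cxcl16 overlaps its neighbour Zmynd15 in both annotations. Neither the annotation nor the strand setting of the counting is known here, so reads in such overlaps are of uncertain origin. Ccl2, Ccl7 and Ccl12 are related in sequence, and a model may have divided reads they share.

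Promoter sequences matched by symbol for 5 of the 10 ligands in the RefSeq table of GRCm38.p6: Ccl3, Ccl9, Ccl12, Ccl22 and Cxcl2. The 250 bases before the start site are printed for 4 of them, on the gene's strand. Cxcl2 and Ccl22 are shown because their levels differed in opposite directions between the hairpins, Ccl12 because its fold over shNT was the largest of the 10, and Ccl9 because it had the highest mean CPM. Capitals mark letters that match the NF-kB consensus on either strand. The windows are chr5:90903649-90903898 (+) for Cxcl2, chr11:83578637-83578886 (-) for Ccl9, chr11:82101595-82101844 (+) for Ccl12 and chr8:94745434-94745683 (+) for Ccl22.
Cxcl2: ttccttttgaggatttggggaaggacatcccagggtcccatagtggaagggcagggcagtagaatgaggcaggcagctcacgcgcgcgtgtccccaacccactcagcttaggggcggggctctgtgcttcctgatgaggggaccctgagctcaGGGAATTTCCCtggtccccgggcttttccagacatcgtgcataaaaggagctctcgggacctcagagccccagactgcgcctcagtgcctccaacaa
Ccl9: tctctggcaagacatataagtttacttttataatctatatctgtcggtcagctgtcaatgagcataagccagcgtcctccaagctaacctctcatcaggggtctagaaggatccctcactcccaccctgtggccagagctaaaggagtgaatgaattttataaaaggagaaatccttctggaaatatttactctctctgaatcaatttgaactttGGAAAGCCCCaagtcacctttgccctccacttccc
Ccl12: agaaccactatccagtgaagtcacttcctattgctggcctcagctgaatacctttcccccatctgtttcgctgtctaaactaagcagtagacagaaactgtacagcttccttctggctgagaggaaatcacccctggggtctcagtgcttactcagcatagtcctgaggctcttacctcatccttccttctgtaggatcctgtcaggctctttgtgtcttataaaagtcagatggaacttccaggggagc
Ccl22: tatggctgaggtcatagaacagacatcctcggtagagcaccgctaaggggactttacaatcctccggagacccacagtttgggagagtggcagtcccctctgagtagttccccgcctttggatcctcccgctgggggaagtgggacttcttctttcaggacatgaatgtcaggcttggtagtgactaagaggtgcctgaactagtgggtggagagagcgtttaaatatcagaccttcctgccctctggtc
The Cxcl2 window matched the NF-kB consensus on both strands, in overlapping matches that span 97 to 87 bases before the start. The Ccl9 window matched it once, on the reverse strand, from 35 to 26 bases before the start. Ccl3, Ccl12 and Ccl22 had no match in these windows. Of 32851 RefSeq promoter windows of the same 250 bases, 3.9% held such a match. The TATA box letters TATAAA, found in 12.4% of windows on either strand, occurred 31 to 26 bases before the start of Ccl12 and, in Ccl9, 92 to 87 bases before it on the gene's strand and 224 to 219 and 94 to 89 bases before it on the reverse strand. The AP-1 letters TGANTCA occurred once, in Ccl9, against 6.75% of windows. The consensus of the interferon-stimulated response element (2.98% of windows) and the STAT letters TTCNNNGAA (7.02%) occurred in none of the 5. The C/EBP letters TTNNGNAA, present in 36.8% of windows, occurred in Ccl3, Ccl9 and Cxcl2, where 1 of the 2 Ccl9 matches overlaps its NF-kB match. The PU.1 letters GAGGAA (23.3%) occurred in Ccl3 and Ccl12.

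In control cells the ligands covered a wide range. Per kilobase of transcript (GENCODE M21 principal transcripts), Ccl3 was the most abundant at 1576 ± 283 CPM per kb (SD, n = 3), followed by Ccl4 at 757 ± 35.7. Both encode inflammatory ligands. Ccl9, a mouse ligand of Ccr1, stood at 328 ± 63.4 CPM per kb, Ccl2 at 246 ± 38.9 and Cxcl2 at 213 ± 9.99. The range of Ccl9 over the shNT libraries (285.1 to 400.5) met that of Ccl2 (207.7 to 285.6), which in turn overlapped that of Cxcl2 (203.4 to 223.3), so these 3 were not ordered beyond their spread. Ccl7 followed at 44.9 ± 11.8 CPM per kb, Ccl5 at 25.5 ± 2.30 and Cxcl16 at 13.4 ± 0.0926. Ccl22 (2.03 ± 0.464) and Ccl12 (1.04 ± 0.477) were lowest. All other neighbours in this order had ranges that did not overlap. Transcript lengths come from an annotation that may not be the one used for counting, which would shift a gene's level in all libraries alike.

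**Figure D1:**
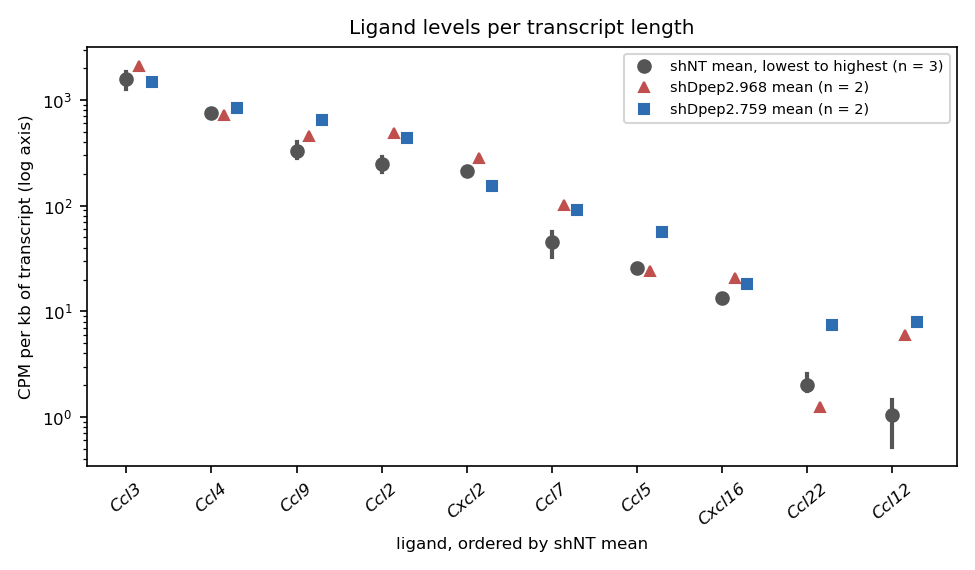
CPM per kilobase of transcript on a log axis for the 10 ligands, ordered by shNT mean. Circles with bars show the mean and the lowest to highest of 3 shNT libraries, and triangles and squares the means of 2 libraries each; with shDpep2.759 the mean of Ccl22 was 7.47 and that of Ccl12 7.92 CPM per kb, against 2.03 and 1.04 with shNT.

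Ccl2, Ccl7 and Ccl12, which draw monocytes through the receptor Ccr2, were all higher with both hairpins. Ccl2 stood at 232, 199.5 and 169 CPM in shNT replicates 1 to 3, at 359 and 441 CPM in the shDpep2.968 libraries and at 413 and 297.5 CPM in the shDpep2.759 libraries. The lowest hairpin library lay above the highest control library. The fitted log2 difference from shNT was 1.00 (SE 0.17, 95% interval 0.63 to 1.37) with shDpep2.968 and 0.83 (SE 0.17, 0.46 to 1.20) with shDpep2.759, about a 2.00-fold and a 1.78-fold higher level. Between the hairpins the log2 difference was 0.17 with an interval of -0.24 to 0.58.

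Ccl7 stood at 45.4, 26.4 and 36.0 CPM with shNT, at 64.1 and 97.1 CPM in the shDpep2.968 libraries and at 79.4 and 67.1 CPM in the shDpep2.759 libraries. Again no hairpin library fell within the control range. The log2 difference was 1.17 (SE 0.23) with shDpep2.968 and 1.03 (SE 0.23) with shDpep2.759, and -0.44 to 0.71 was the interval of the difference between them. Ccl12 was the least abundant of the 10 in controls, with 13, 11 and 5 counts in the shNT libraries, or 0.786, 0.603 and 0.279 CPM. It had 47 and 63 counts with shDpep2.968 (2.72 and 3.63 CPM) and 91 and 58 counts with shDpep2.759 (5.11 and 3.40 CPM). The lowest hairpin library thus had 47 counts and the highest control library 13. The fitted difference from shNT was 5.69-fold (log2 2.51, SE 0.38) with shDpep2.968 and 7.62-fold (log2 2.93, SE 0.38) with shDpep2.759. Its hairpin to hairpin interval was wide, -1.20 to 0.35 on the log2 scale.

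Cxcl16, a membrane-anchored chemokine that binds Cxcr6 and is shed by Adam10, had the smallest spread of the 10 over the control libraries. It stood at 35.9, 36.0 and 36.4 CPM with shNT, at 54.2 and 57.6 CPM in the shDpep2.968 libraries and at 48.1 and 49.8 CPM in the shDpep2.759 libraries. All 3 groups were apart from each other. The log2 difference was 0.63 (SE 0.12) with shDpep2.968 and 0.44 (SE 0.12) with shDpep2.759, and the interval between the hairpins was -0.08 to 0.47.

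Ccl9 was higher with both hairpins on average, but its groups met. It stood at 1204, 857 and 894 CPM with shNT, at 1190 and 1577 CPM in the shDpep2.968 libraries and at 2186 and 1664 CPM in the shDpep2.759 libraries. One shDpep2.968 library lay below shNT replicate 1, whereas both shDpep2.759 libraries lay above all others. The log2 difference was 0.49 (SE 0.18, 95% interval 0.09 to 0.89) with shDpep2.968 and 0.97 (SE 0.18, 0.57 to 1.36) with shDpep2.759. Between the hairpins it was -0.48 (-0.92 to -0.04), which did not pass the adjusted threshold over all genes.

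**Figure D2:**
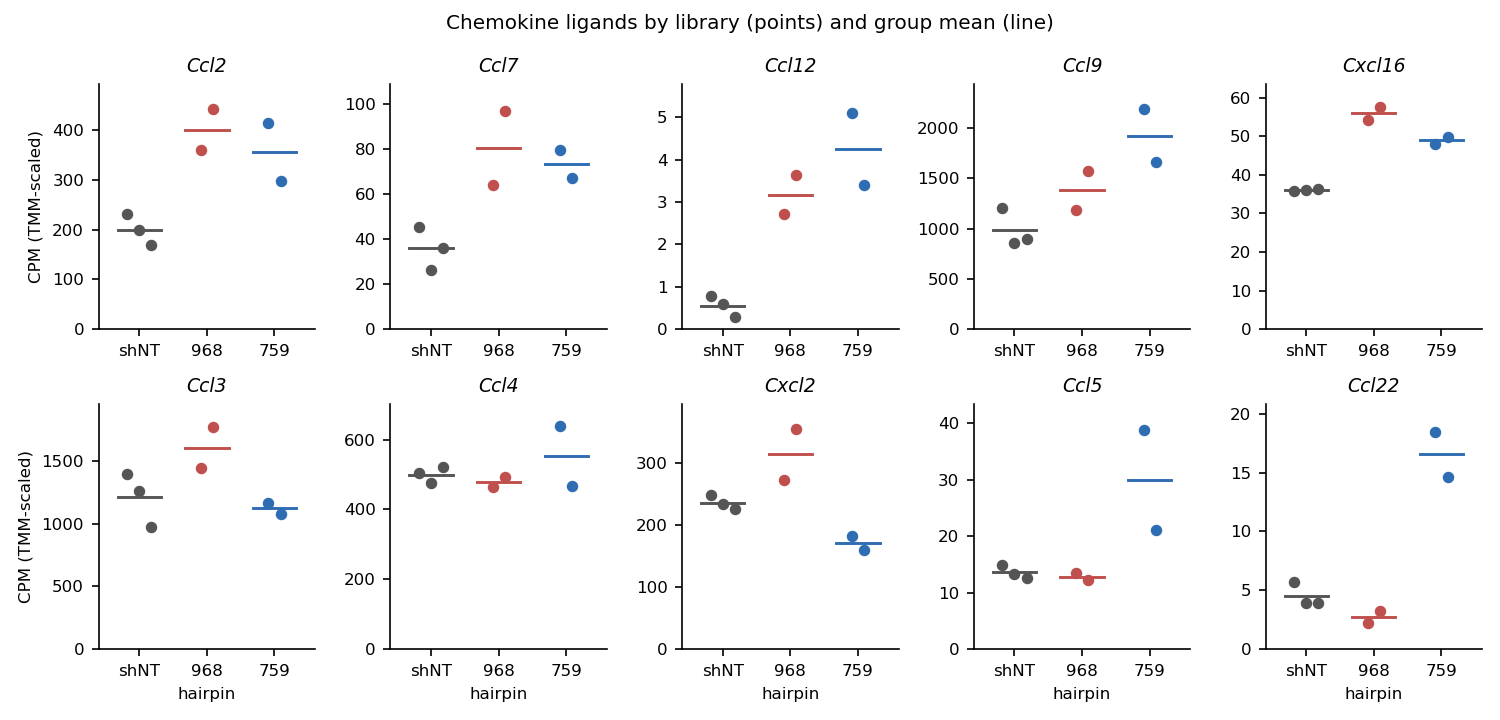
CPM of the 10 ligands in each library (points), with a line at the mean of each group: shNT (n = 3), shDpep2.968 and shDpep2.759 (n = 2 each), every vertical axis starting at 0. Ccl2, Ccl7, Ccl12 and Cxcl16 were above the controls in all 4 hairpin libraries, whereas Ccl5 and Ccl22 were high with shDpep2.759 alone, at 21.2 to 38.8 and 14.6 to 18.5 CPM.

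The inflammatory ligands Ccl3, Ccl4 and Cxcl2 did not share that pattern. Cxcl2, which recruits neutrophils through Cxcr2, stood at 248, 234 and 226 CPM with shNT. It was higher with shDpep2.968, at 272 and 355 CPM, and lower with shDpep2.759, at 182 and 160.0 CPM. No 2 groups overlapped. The log2 difference from shNT was 0.41 (SE 0.14, 95% interval 0.12 to 0.71) with the first hairpin and -0.46 (SE 0.14, -0.77 to -0.16) with the second. Averaged over both, it came to -0.03. Neither hairpin's difference from shNT passed the adjusted threshold over all genes in the main edgeR fit, whereas DESeq2 called both. Between the hairpins it was 0.87 (SE 0.15, 0.55 to 1.20), and 0.67 without shDpep2.968 replicate 2.

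Ccl3 stood at 1396, 1256 and 970.5 CPM with shNT, at 1441 and 1765 CPM in the shDpep2.968 libraries and at 1167 and 1078 CPM in the shDpep2.759 libraries. The shDpep2.968 libraries were the highest of the 7, and the shDpep2.759 libraries lay inside the control range. The log2 difference between hairpins was 0.51 (95% interval 0.13 to 0.90), which did not pass the adjusted threshold over all genes. Ccl4, its neighbour, stayed close to its controls with both hairpins. It stood at 503, 475 and 522 CPM with shNT, 463 and 492.5 CPM with shDpep2.968, and 640.1 and 467 CPM with shDpep2.759. Only shDpep2.759 replicate 1 left the control range upwards. Log2 differences from shNT were -0.06 (-0.38 to 0.25) and 0.15 (-0.17 to 0.46).

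Ccl22 and Ccl5 differed between the libraries of the 2 hairpins. Ccl22, a ligand of Ccr4 typical of dendritic cells and activated macrophages, stood at 5.68, 3.89 and 3.91 CPM with shNT, from 94, 71 and 70 counts. It was lower with shDpep2.968, at 2.25 and 3.23 CPM, and higher with shDpep2.759, at 18.5 and 14.6 CPM. The groups did not overlap. The log2 difference from shNT was -0.71 (SE 0.25, 95% interval -1.26 to -0.16) with shDpep2.968, which did not pass the adjusted threshold. With shDpep2.759 it was 1.88 (SE 0.22, 1.41 to 2.36). Between the hairpins it was -2.59 (SE 0.26, -3.16 to -2.02), the largest such difference among the 10, and it ranged from -2.87 to -2.34 when each library was left out in turn.

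Ccl5, which attracts T cells and monocytes, stood at 14.9, 13.2 and 12.6 CPM with shNT and at 13.4 and 12.3 CPM with shDpep2.968. With shDpep2.759 it stood at 38.8 and 21.2 CPM, so replicate 1 carried much of the group's mean. The log2 difference from shNT was -0.08 (-0.56 to 0.41) with shDpep2.968 and 1.14 (0.68 to 1.61) with shDpep2.759. Without shDpep2.759 replicate 1 the second value was 0.64, and the difference between hairpins went from -1.22 to -0.72. S100a8 had the same order of libraries in that group, with 236 CPM in replicate 1 and 99.8 CPM in replicate 2. Elsewhere it had 17.0 to 49.5 CPM. The other ligands except Cxcl16 had that order too, so it is not particular to Ccl5. The part of S100a8 in these values was not tested.

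**Figure D3:**
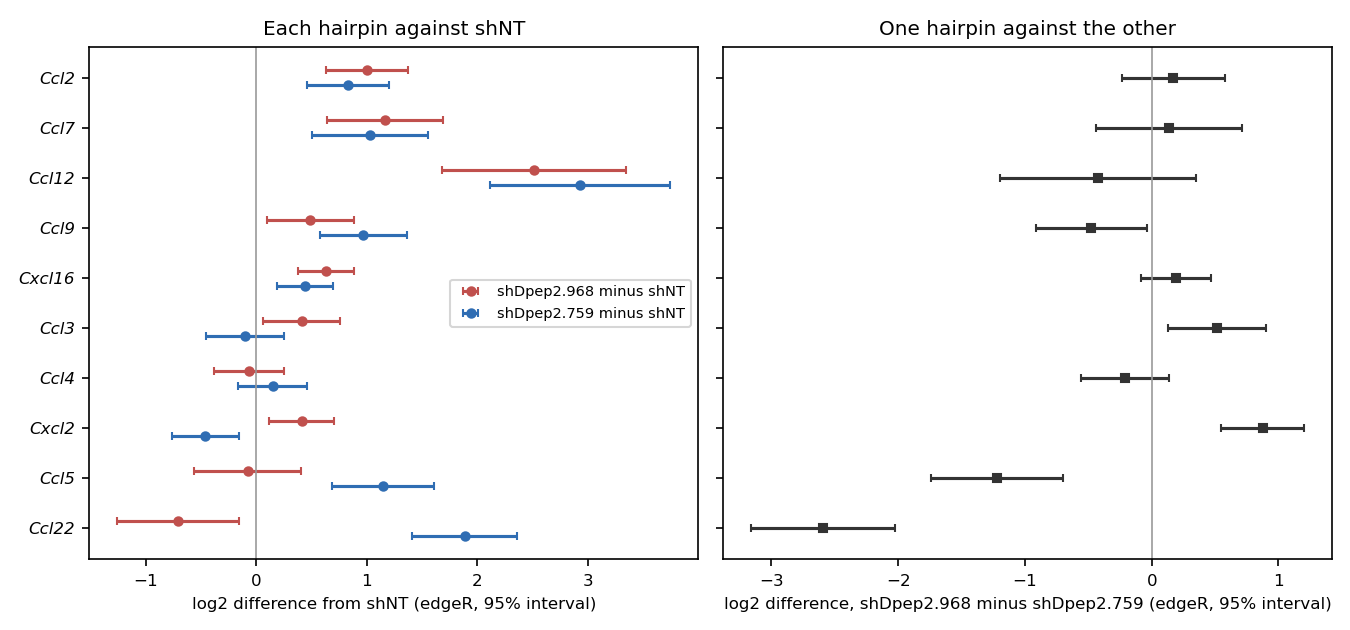
Left, fitted log2 difference of each ligand from shNT with shDpep2.968 and shDpep2.759; right, the log2 difference between the hairpins, both with edgeR 95% intervals. The left comparisons share the shNT libraries. Intervals on the right lie wholly below 0 for Ccl22, Ccl5 and Ccl9 and wholly above 0 for Cxcl2 and Ccl3. They are not adjusted for the number of genes, and the differences of Ccl9 and Ccl3 did not pass the adjusted threshold.

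Read over the family, 5 of the 10 ligands were called higher in the mean of both hairpins against shNT (Ccl2, Ccl7, Ccl9, Ccl12 and Cxcl16), where 3.44% of all 13329 tested genes were called higher. For 4 of the 10 all hairpin libraries lay above all control libraries, against 9.03% of tested genes. The median log2 difference was 0.56 over the 10 and 0.00 over all tested genes (edgeR quasi-likelihood test, adjusted p under the 0.05 threshold over all genes). With shDpep2.968 alone Ccl2, Ccl7, Ccl12 and Cxcl16 were called higher, 4 of 10 (2.29% of tested genes), and with shDpep2.759 alone 7 (2.72%), namely these 4 with Ccl5, Ccl9 and Ccl22. No ligand was called lower in either in the main fit, whereas DESeq2 called Cxcl2 lower with shDpep2.759. Between the hairpins Cxcl2 was called higher with shDpep2.968 (0.255% of tested genes were) and Ccl5 and Ccl22 lower (0.585%). These counts use the values that the set was chosen from, and nothing is read from them. The averaged count was 3 without shNT replicate 3. Without shDpep2.968 replicate 2 no ligand was called with shDpep2.968, and the 7 called with shDpep2.759 became 4, 2 and 3 without shNT replicate 2, shNT replicate 3 and shDpep2.759 replicate 1. Between the hairpins 1 call was left without shNT replicate 3 or shDpep2.968 replicate 2, that of Ccl22. Over 18 alternatives the call of Cxcl16 with shDpep2.759 (edgeR adjusted p = 0.0495) was lost in 15, every left-out library among them, and that of Ccl5 between the hairpins in 9, among them limma-voom and 6 of the 7 left-out libraries. The call of Ccl7 with shDpep2.759 was lost in 5, that of Ccl2 with shDpep2.759 in 4 and the averaged call of Ccl9 in 4.

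The sequence of the transcripts also differed within the family. The pentamer ATTTA, the core of AU-rich elements, occurred 11 times in the 734 bases of the Cxcl2 3' UTR, 5 times in the 409 bases of Ccl3 and 5 times in the 167 bases of Ccl12. These densities of 14.99, 12.2 and 29.9 per kb were reached by 0.335%, 0.589% and 0.0543% of 11043 tested coding genes, whose median was 1.26 per kb. Ccl4 had 6.62 per kb, Ccl7 4.60, Ccl2 3.64 and Ccl9 2.03. Cxcl16 (1.41), Ccl22 (1.10) and Ccl5, with no ATTTA in 199 bases, were near or below the median. Among the transcripts with the highest densities, Ccl12 was higher with both hairpins. Cxcl2 and Ccl3 lay above their controls with shDpep2.968, where neither difference passed the adjusted threshold. The part of ATTTA density in these levels was not tested. The GC content of the transcripts ran from 42.1% in Ccl9 and Ccl12 to 53.6% in Ccl5, against a median of 49.9% over tested genes.

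Of 28 other chemokine ligands 7 passed the low-count filter and 2 rose. Cxcl10, an interferon-induced ligand of Cxcr3, stood at 25.8, 24.9 and 23.0 CPM with shNT, at 30.8 and 30.8 CPM in the shDpep2.968 libraries and at 39.2 and 37.4 CPM in the shDpep2.759 libraries (averaged log2 fold change 0.48, SE 0.11, edgeR adjusted p = 0.0164). With shDpep2.968 alone Cxcl10 did not pass (log2 0.33, edgeR adjusted p = 0.147). Cxcl3, a neutrophil chemokine related to Cxcl2, rose by 0.88 on the log2 scale (SE 0.20, edgeR adjusted p = 0.0217). It stood at 7.29 to 12.2 CPM in 3 shNT libraries and 12.5 to 21.5 CPM in 4 hairpin libraries. Unlike Cxcl2 it was above its controls with shDpep2.759 too, but that difference did not pass (log2 0.68, edgeR adjusted p = 0.132). Both calls were lost without shNT replicate 2, shNT replicate 3 or shDpep2.968 replicate 2, and with the replicate number as a block.

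None of the 10 tested chemokine receptors, of 19 listed, passed the threshold in the averaged comparison by edgeR, DESeq2 or limma-voom. By these tools 2, 3 and 3 of them had an unadjusted p under 0.05. In edgeR 3048 of all 13329 tested genes had such a p, so nothing is read from these counts. The receptors with the highest levels were Cx3cr1, the fractalkine receptor, at 52.9 to 76.5 CPM over the 7 libraries (log2 0.15, SE 0.13), and Ccr1, a receptor for Ccl3, Ccl5 and Ccl9, at 30.7 to 73.9 CPM (log2 0.55, SE 0.24, edgeR adjusted p = 0.233). Ccr2, which binds Ccl2, Ccl7 and Ccl12, stood at 2.89 to 6.004 CPM. Ccr3 and Ccr7 were picked out after their values were seen. Ccr3 was higher with shDpep2.968 (log2 2.79), with 17 and 21 counts there. It had 4, 3 and 1 counts with shNT and 2 and 9 with shDpep2.759. Only the shDpep2.968 libraries brought it past the low-count filter, so its call there is not read as evidence. Ccr7, the receptor that guides dendritic cells to lymph nodes, was called higher with shDpep2.759 alone (log2 2.56, edgeR adjusted p = 0.00232). It had 0.725, 0.384 and 0.503 CPM with shNT, 0.636 and 0.346 CPM with shDpep2.968, and 3.14 and 3.22 CPM with shDpep2.759. Both shDpep2.759 libraries were above all others, as for Ccl22 and Ccl5. The log2 difference between hairpins was -2.68 (edgeR adjusted p = 0.0173), a call lost without either shDpep2.968 library or without shDpep2.759 replicate 1.

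Of 6 atypical receptors only Ccrl2, which binds chemerin and can present it to other cells, passed the filter, and it rose. It stood at 7.80, 9.15 and 9.28 CPM with shNT, at 11.7 and 15.6 CPM in the shDpep2.968 libraries and at 21.4 and 15.8 CPM in the shDpep2.759 libraries. All hairpin libraries were above all controls (log2 0.86, SE 0.16, edgeR adjusted p = 0.00614).

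**Figure D4:**
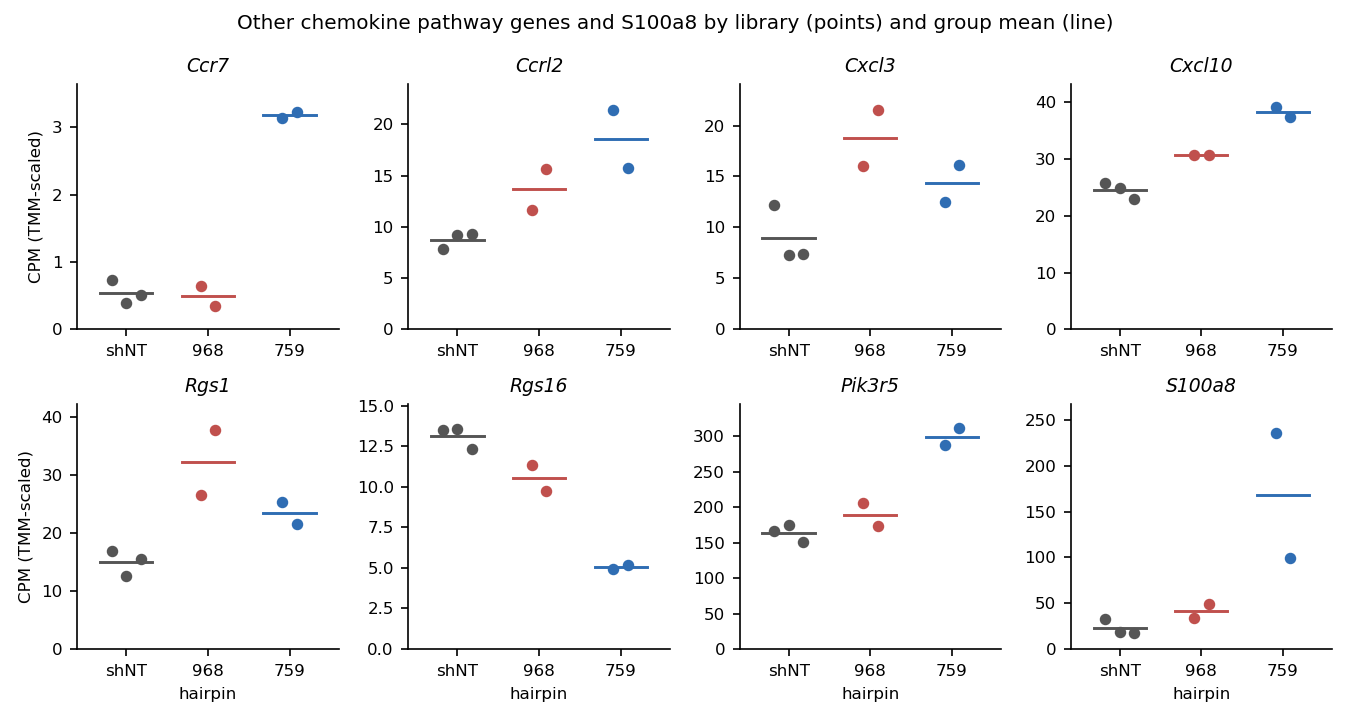
CPM in each library (points) and group means (lines) for 7 chemokine pathway genes and S100a8, with shNT (n = 3), shDpep2.968 and shDpep2.759 (n = 2 each). Ccr7 and S100a8 were highest in the shDpep2.759 libraries, and Rgs16 was lowest there at 4.94 and 5.15 CPM.

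Of 27 tested signalling genes downstream of chemokine receptors 2 rose and 1 fell. Rgs1 and Rgs16 encode regulators that shorten G protein signalling, and they went opposite ways. Rgs1 rose by 0.88 on the log2 scale (SE 0.15, edgeR adjusted p = 0.00467), from 12.6 to 17.0 CPM in controls to 21.6 to 37.8 CPM in hairpin libraries. Rgs16 fell by 0.85 on the log2 scale (SE 0.13, edgeR adjusted p = 0.00268), from 12.3 to 13.5 CPM in controls to 11.3 and 9.73 CPM with shDpep2.968 and 4.94 and 5.15 CPM with shDpep2.759. With shDpep2.968 alone Rgs16 did not pass (log2 -0.32, edgeR adjusted p = 0.254). Pik3r5, a regulatory subunit of the G protein-coupled PI3 kinase, rose by 0.54 on the log2 scale (SE 0.11, edgeR adjusted p = 0.00932). With shDpep2.968 alone Pik3r5 did not pass either (log2 0.21, edgeR adjusted p = 0.339). Its averaged call was lost without shNT replicate 3, with the replicate number as a block and with both hairpins fitted as 1 group. Pik3r5 stood at 287 and 311 CPM with shDpep2.759 and at 206 and 173 CPM with shDpep2.968, where the controls had 151 to 175 CPM.

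Among 19 tested genes that cut, shed or hold chemokines 3 rose. The matrix proteases Mmp12 and Mmp9, which can cleave chemokines, had log2 fold changes of 1.55 (SE 0.25) and 0.77 (SE 0.10), with edgeR adjusted p of 0.00326 and 0.000932. Ndst1, which sulfates the heparan chains that hold chemokines, rose by 0.58 on the log2 scale (SE 0.13, edgeR adjusted p = 0.0178). That rise came to log2 0.87 in the shDpep2.968 libraries (edgeR adjusted p = 0.00736), while in the shDpep2.759 libraries the difference was 0.29 and did not pass (edgeR adjusted p = 0.329). Of 31 tested transcription factors and inhibitors known to act on chemokine genes 3 rose, among them Stat2 (log2 0.41, SE 0.09) and the AP-1 subunit Fos (log2 0.40, SE 0.10), with edgeR adjusted p of 0.0207 and 0.0281. With shDpep2.968 alone neither passed (log2 0.21 and 0.27, edgeR adjusted p of 0.274 and 0.193), against log2 0.60 and 0.54 with shDpep2.759. Ndst1, Stat2 and Fos lost their calls without shNT replicate 2, shNT replicate 3 or shDpep2.968 replicate 2, and Fos also without shNT replicate 1 or shDpep2.968 replicate 1.

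Of 15 tested mRNA decay factors 1 rose and 1 fell. Zc3h12c, a relative of the endonuclease regnase, rose by 0.72 on the log2 scale (SE 0.15, edgeR adjusted p = 0.0124), and Zfp36l1, which binds AU-rich elements and promotes decay, fell by 0.57 (SE 0.13, edgeR adjusted p = 0.0192). Zfp36l1 stood at 33.1, 40.9 and 31.4 CPM with shNT, at 24.8 and 24.2 CPM in the shDpep2.968 libraries and at 20.3 and 25.7 CPM in the shDpep2.759 libraries. Both calls were lost without shNT replicate 2 or shDpep2.968 replicate 2, and that of Zc3h12c also without shNT replicate 3. Over all 7 lists 12 of 110 tested genes rose and 2 fell, or 10.9% and 1.82%, against 3.44% and 4.15% of all tested genes. The lists were chosen with earlier results of these data known, so nothing is read from these shares. The 14 calls became 6 without shNT replicate 2, shNT replicate 3 or shDpep2.968 replicate 2, and 8 when both hairpins were fitted as 1 group.

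Across the whole table, likeness to a ligand was measured as the root mean square difference of log2 CPM, centred on the shNT mean, over the 7 libraries. Of 9984 other genes with at least 5 CPM on average, Trim30d (0.0813), the cytokine gene Il10 (0.120) and the interferon-induced gene Oasl2 (0.134) were nearest to Ccl2. Il10 stood at 24.1, 18.9 and 17.4 CPM with shNT and at 34.7 to 43.2 CPM in the 4 hairpin libraries. Trim30d and Oasl2 have close paralogs, so their read counts are uncertain. The nearest other member was Ccl7 (0.269), then Ccl9 (0.300). Nearest to Ccl9, the member with the highest mean CPM, were Ms4a6c (0.0833), the costimulatory ligand gene Cd80 (0.108) and Tifab (0.111). Ms4a6c stood at 30.0, 23.9 and 21.3 CPM with shNT, 30.8 and 36.6 CPM with shDpep2.968 and 54.4 and 41.9 CPM with shDpep2.759. Ccl12 and Ccl22 were the members farthest from Ccl2, at 1.44 and 1.084. This measure grows with the size of a difference as well as its direction. Ccl12 was higher with both hairpins, as Ccl2 was, but by more.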

How the data were processed

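Whole-number counts per gene symbol for 7 libraries were used as deposited. Trim Galore, Salmon and the human build hg38 are listed in the submitters' processing notes, with no version or role, although the symbols are mouse. Not given in the sources used here are the annotation, the strand setting and whether the authors rounded Salmon estimates. Libraries were prepared from total RNA as stranded total RNA libraries, per the labels' protocols.

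Counts were analysed with R 4.3.3 and edgeR 4.0.16: filterByExpr by group (13329 genes), TMM scaling, 1 mean per group over all 7 libraries (4 residual degrees of freedom), and the robust quasi-likelihood test with Benjamini-Hochberg adjustment over all tested genes at 0.05. Fits were also run on counts simulated with the dispersions they had estimated, so that run does not check the calls made here. The members and lists were chosen with earlier results of these data known. Each list gave up to 4 named genes past the threshold with the smallest p, or else the 2 with the highest mean CPM. Dpep2 was named as the check of the labels, beside the 10 ligands. Ccr3, Ccr7 and the marker genes are outside this rule, as is Ccr2, named as a receptor of members. 1 gene that the rule names is not reported here. Intervals are 95%. Transcript lengths, GC and 3' UTRs came from GENCODE M21, whose symbols covered 95.7% of tested genes, and promoters from RefSeq. The alternatives were other scalings and filters, DESeq2 1.42.0, limma 3.58.1 (voom), a replicate block, 1 hairpin group, the compared groups only and each library left out. A GC and length correction was chosen after seeing the data. Deviations of same-numbered libraries from their group means had correlations of -0.193 to 0.06. In a group of 2 libraries these deviations mirror each other, so this is a weak check of pairing. No 2 libraries of a group were alike within counting noise (chi-square over its degrees of freedom was 15.5 to 44.9).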

Additional observations from a re-analysis of the deposited data

Results flagged for a closer look

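For 4 ligands both shDpep2.968 libraries and both shDpep2.759 libraries lay on opposite sides of the shNT mean. The share of all tested genes with this arrangement was not computed, so the count is not read as a trait of the ligands. The log2 difference of shDpep2.968 from shDpep2.759 was -2.59 for Ccl22, -1.22 for Ccl5, 0.87 for Cxcl2 and 0.51 for Ccl3. The fit over all genes called the first 3 and not Ccl3, a description only, since the ligands were chosen with these values known; the difference was not tested in other libraries. For 3 pathway genes the difference between the hairpins passed the edgeR threshold: Ccr7 (-2.68), Rgs16 (1.06) and Pik3r5 (-0.66). Ccr7 was picked out after its values were seen. The Pik3r5 difference lost its call in 12 of 18 alternatives and the Rgs16 difference in 6 of 18.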

How the results depend on the processing

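Of 720 ligand values under the alternatives, 701 moved by less than 1 SD between replicates, 19 moved further and 0 called ones changed sign. The counts over all genes moved more. Main counts were 1012 (averaged), 700 (shDpep2.968), 630 (shDpep2.759) and 112 (between hairpins), with 14 pathway genes. With no low-count filter they were 1590, 1443, 1131 and 669. With the GC and length correction they were 2122, 1671, 1653 and 553, with 29 pathway genes. With the replicate number as a block the first 3 were 404, 308 and 312, with 7 pathway genes. In that fit 2 ligands were called with shDpep2.968 and 4 with shDpep2.759. Whether the numbers pair the libraries is not known here. With all hairpin libraries as 1 group the averaged count was 551, with 8 pathway genes. With only the compared groups it was 1350 for shDpep2.968 and 61 between hairpins. Between hairpins DESeq2 gave 376, limma-voom 54 and no robust estimation 63. With each library left out in turn the ranges were 321 to 1468, 69 to 1309, 253 to 768 and 6 to 1070, and 6 to 21 for the pathway genes. The cause of these shifts was not tested. The depth limits Ccl12 most, at 5 to 13 counts per control library.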

Other observations

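Of the 28 other chemokine ligands 10 had 0 counts in all 7 libraries, among them Ccl1, Ccl20 and Cxcl12. A count of 0 allows up to 3 counts, or 0.164 to 0.181 CPM per library, for counting error only. Cxcl1, the neighbour of Cxcl2 and a ligand of the same receptor, stood at 0 to 0.110 CPM with shNT, at 0.694 and 0.346 CPM in the shDpep2.968 libraries and at 0 and 0.234 CPM in the shDpep2.759 libraries, so it did not reach the low-count filter although Cxcl2 stood at 160.0 to 355 CPM. Ccl6, which lies between Ccl9 and Ccl3, stood at 10.7 to 18.8 CPM with shNT and at 15.03 to 21.7 CPM in the hairpin libraries (averaged log2 fold change 0.40, edgeR adjusted p = 0.214). The macrophage marker Adgre1, the gene of the F4/80 antigen, shared the hairpin pattern of Ccl22 in part: it stood at 252 and 265 CPM with shDpep2.759, against 127 to 141 CPM with shNT and 145 and 155 CPM with shDpep2.968.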
